A study of Homo sapiens with 15 samples.

Results

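The clustered protocadherins are a family of cell surface proteins encoded side by side on human chromosome 5, and DNA methylation was followed at the starts of their genes. Members were all protein-coding genes on chromosome 5 that the GENCODE annotation (release 44) names PCDHA, PCDHB or PCDHG. There were 53 of them among 20033 protein-coding genes, 15 in the alpha cluster, 16 in the beta cluster and 22 in the gamma cluster, all read on the plus strand. In hg38 the first start, that of PCDHA1, was at chr5:140786136 and the last, that of PCDHGC5, at chr5:141489081. A gene start region took the CpGs within 500 bp on either side of the annotated start, and no 2 of these regions overlapped.

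Each protein sticks to copies of itself on a neighbouring cell, and neurons choose a small set of these genes so that a cell can tell its own branches from those of others. Each alpha or gamma gene has a promoter and a large variable first exon of its own, which is spliced to exons shared by the whole cluster, while beta genes consist of a single coding exon. Methylation of a promoter goes with silence of its gene, and most of these promoters carry a conserved sequence element with a CGCT core, at which the insulator protein CTCF can bind. The C-type genes (PCDHAC1, PCDHAC2, PCDHGC3, PCDHGC4 and PCDHGC5) lie at the ends of the alpha and gamma clusters, and neurons express them more evenly than the other members. In many tumours, colorectal ones included, promoters of the 3 clusters are methylated together.

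The cells were HCT116, an established colorectal carcinoma line, with an integrated short hairpin RNA (shRNA) switched on by doxycycline. It targeted either UHRF1, which guides maintenance of methylation after replication, or DNMT1, the enzyme that performs it. The shUHRF1 populations were the clones Cl.3, Cl.6 and Cl.9, each grown from 1 cell, and the shDNMT1 populations were the bulk cultures R1 and R2. Baseline libraries came from day 14 without doxycycline, Knockdown libraries from day 14 with 10 ng/mL, and Recovery libraries from day 28, after 14 days with the drug and a further 14 days without it. All groups carried the shRNA construct, and Recovery had no Baseline library of its own day. In these libraries the shRNA, clonal or bulk growth and the separate count tables cannot be told apart, and no expression was measured, so how far UHRF1 or DNMT1 fell cannot be read here. Cl.3 and Cl.6 shared a count table, and Cl.9 had its own. Cl.9 also had a median of 19 to 20 reads per CpG, against 11 to 13 in Cl.3 and Cl.6.

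Whole-genome bisulfite sequencing gave 315732617 to 590592161 reads at CpGs per library, with a median of 11 to 20 reads per CpG. Read totals over a region or library are sums over its CpGs, so a read spanning several CpGs was counted at each. The methylation level (mC) of a region is the share of its reads that kept a methylated C, and a bisulfite read cannot tell an unmethylated C from a T allele. Regions were tested where they held no fewer than 5 CpGs and, in each library, 50 reads, which 52 members and 18408 genes in all passed. The exception was PCDHA11, whose window held 0 CpGs and whose start codon lies 921 bp downstream of the annotated start. Starts of the epithelial markers EPCAM, CDH1, KRT8, KRT18 and CDX2 had mean Baseline levels of 7.18% to 17.2%, against 95% at the fibroblast gene COL1A2 and 8.15% at VIM, and PTPRC did not pass the filter.

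The shared promoter sequence was looked for first, because it marks where a CpG sits inside the element that CTCF can occupy. In the 250 bases before and 50 bases after each start, CGCT or its reverse complement was found in 51 of 53 members, and in 77.2% of all promoters of that length. The 10-letter word with CGCT that most members shared was TGATGTCGCT in the alpha cluster, with 9 of 15 members and 0.0549% of all 20033 promoters. It was GGTGGCGCTG in the beta cluster, with 13 of 16 members and 0.379% of promoters. In the gamma cluster it was GCGCCGCTGT, with 9 of 22 members and 0.160% of promoters. Both strands were searched, every copy was on the strand of the gene, and no word occurred in a member of another cluster. No other 10-letter word was shared by more members of a cluster. Of the 31 sites, 30 began between 2 and 99 bp upstream of the start, and that of PCDHGA12 began 31 bp after it.

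The following 26-base sites, read 5′ to 3′ from hg38 on the plus strand, were chosen after their values were seen, to show how alike the sites of a cluster are with widely differing methylation, and the capitals mark the shared word.
PCDHA1 (chr5:140786088-140786113): tggccacaTGATGTCGCTgtacacca
PCDHA6 (chr5:140827899-140827924): gagccgcaTGATGTCGCTgtctacca
PCDHA8 (chr5:140841132-140841157): aagccacaTGATGTCGCTgtctacca
PCDHB4 (chr5:141121726-141121751): agacgcagGGTGGCGCTGcaggctaa
PCDHB5 (chr5:141135182-141135207): ggacgcctGGTGGCGCTGcaggctaa
PCDHB7 (chr5:141172569-141172594): aaacgcaaGGTGGCGCTGctggctaa
PCDHB10 (chr5:141192302-141192327): ggccacacGGTGGCGCTGcaggctaa
PCDHGA10 (chr5:141412935-141412960): gactctgaGCGCCGCTGTtcacctac
PCDHGA12 (chr5:141430530-141430555): gactctgaGCGCCGCTGTtcaccaat

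At Baseline most members were highly methylated, and a few were not. The unweighted mean over members was 76.5% in Cl.3, 80.2% in Cl.6, 71.9% in Cl.9, 74.0% in R1 and 75% in R2. The median member, averaged over the 5 populations, stood at 81.2%, against 12.6% for the median of all 18408 gene starts tested, of which only 6713 had a mean Baseline level of at least 50%. Among members 46 of 52 reached 50%, with a median of 82.7% against 90.5% for all gene starts in that class. Single members ranged from 15.2% for PCDHAC2 to 97.0% for PCDHGB6.

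**Figure D1:**
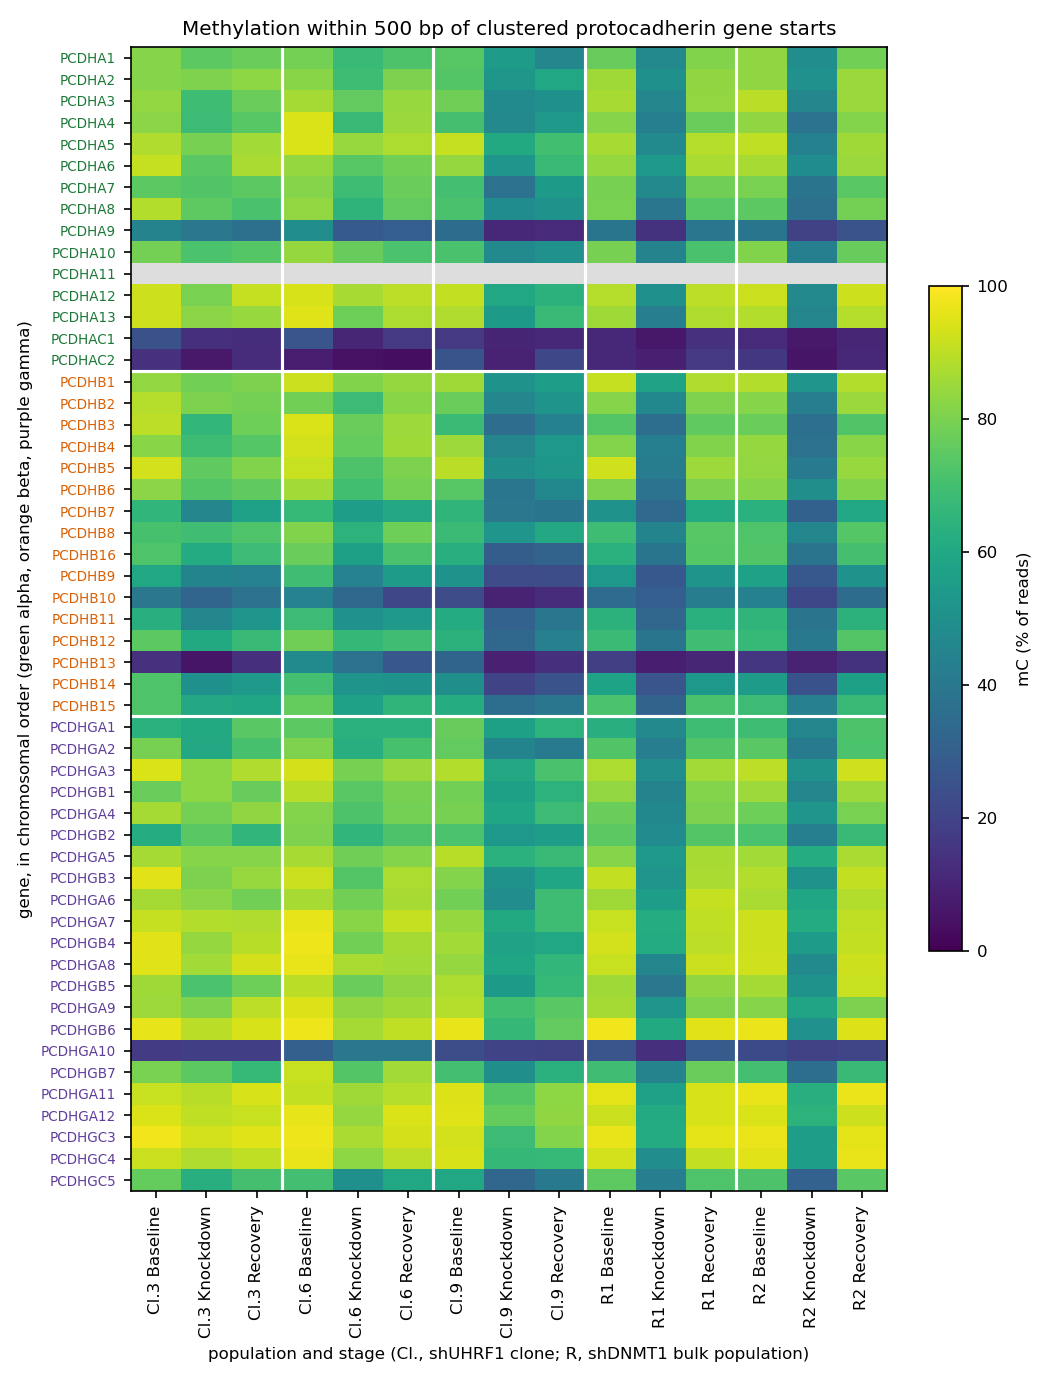
mC (colour, percent of reads) within 500 bp of each gene start, 1 row per gene in chromosomal order and 1 column per library, with PCDHA11 in grey because its window held no CpG. Dark rows are the members low at Baseline (PCDHA9, PCDHAC1, PCDHAC2, PCDHB10, PCDHB13 and PCDHGA10), and the Knockdown columns darken most in Cl.9, R1 and R2.

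The gamma cluster was the most methylated at Baseline and the beta cluster the least, except in Cl.6, where alpha was 1.49 percentage points below beta. The order of alpha and beta depended on the processing, as alpha minus beta averaged 2.51 ± 2.32 points (SD, n = 5) but −3.59 with at least 10 reads per CpG, −11.7 with reads pooled over genes, −2.23 in 250-bp windows and −0.354 without genes under 7 reads per CpG. Gamma members averaged 83.2%, 86.9% and 80.8% across Cl.3, Cl.6 and Cl.9, while R1 and R2 had 82.5% and 82.8%. Beta members averaged 70.4%, 76.0%, 63.8%, 65.9% and 67.4% in the same order. Beta lay below gamma in 5 of 5 populations, by 14.5 ± 2.61 percentage points (SD, n = 5), and the exact permutation p from two-sided sign flips was 0.063, the smallest that 5 populations allow, and 0.0938 after Benjamini-Hochberg adjustment over the 3 pairs of clusters.

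Alpha members averaged 72.9%, 74.5% and 67.2% in the clones, with 69.9% and 71.5% for the bulk populations, 12.0 ± 1.30 points below gamma (SD, n = 5; exact sign-flip permutation p = 0.063, adjusted 0.0938). Most of that gap went with the C-type genes. Without them alpha was 2.33 points below gamma and 11.6 points above beta, each with 1 sign in every population, whereas beta stayed 13.9 points below gamma.

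The C-type genes held the lowest Baseline levels of the family and some of its high ones. At PCDHAC1, the last but 1 of the alpha first exons, Baseline mC was 25.0%, 26.3% and 16.4% across Cl.3, Cl.6 and Cl.9, and lower at 11.3% and 12.5% in R1 and R2. At its neighbour PCDHAC2 it was 14.4%, 8.0%, 26%, 11.5% and 16.2% in the same order. The authors' segmentation placed both starts in unmethylated regions at Baseline in all 5 populations. At PCDHGC3, which opens the gamma C-type group, the levels were 97.9%, 97.6%, 93.3%, 96.8% and 97.0%, so that no library overlapped those of the alpha C-type genes. Beside these gamma members, PCDHGC4 had a mean of 94.3% and PCDHGC5 of 70.7% over the 5 populations. The windows of PCDHAC1 and PCDHAC2 held 78 and 62 CpGs, the median member 32.

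Outside the C-type genes, PCDHGA10 was the 1 gamma member low at Baseline. Its levels were 17.2%, 30.5%, 23.6%, 26.2% and 22.3%, far under those of PCDHGB6 just before it on the chromosome (96.1%, 97.4%, 96.5%, 98.0% and 96.9%, at fewer than 7 reads per CpG). The start of PCDHGA10 lay in an unmethylated region in every Baseline library. In the beta cluster PCDHB10 and PCDHB13 were low, at means of 37.2% and 25.8%, and in the alpha cluster PCDHA9, at 41.4%, whose start codon lies 724 bp downstream of the annotated start.

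Clones differed from each other at these starts more than at most others. The SD of the Baseline level over the 3 clones had a median of 5.34 points among the 46 members at 50% or more, against 2.91 points among all 6713 gene starts in that class. Between the 2 bulk populations the corresponding medians were 1.67 and 1.32 points. The members' lower Baseline median, 82.7% against 90.5%, moved with this and its part was not tested. The widest spread was at PCDHB13, with 14.3%, 47.6% and 32.4% across Cl.3, Cl.6 and Cl.9, beside 18.8% and 15.9% in R1 and R2, at fewer than 7 reads per CpG. Next was PCDHB3, with 90%, 94.1% and 68.1% in the clones, beside 73.1% and 77.6% in the bulk populations, named after its values were seen.

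Methylation was not even along the windows. In 100-bp bins with reads pooled over genes and averaged over the Baseline libraries, the alpha bins between 500 bp upstream and 500 bp downstream read 42.9% to 75.7%, and those at 1000 to 2000 bp downstream 85.2% to 97.8%. The gap between these ranges rested on the C-type genes PCDHAC1 and PCDHAC2. Without them, an alternative added after seeing the data, these bins overlapped, at 59.0% to 96.9% and 75.3% to 97.5%. Without them, bins up to 500 bp before the start read 59.0% to 78.9%, and those up to 500 bp after it 82.4% to 96.9%. Bins 500 to 1000 bp before the start read 40.7% to 71.1%, and those 500 to 800 bp after it 71.7% to 75.1%. The bins just after the start were thus higher than those on both sides, and those just before it were no dip. Here the variable exon stands for the stretch more than 500 bp and up to 2000 bp downstream of a start, also in the beta cluster. It averaged 82.6% to 88.1% over the members at Baseline, above the starts in all 5 populations.

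**Figure D2:**
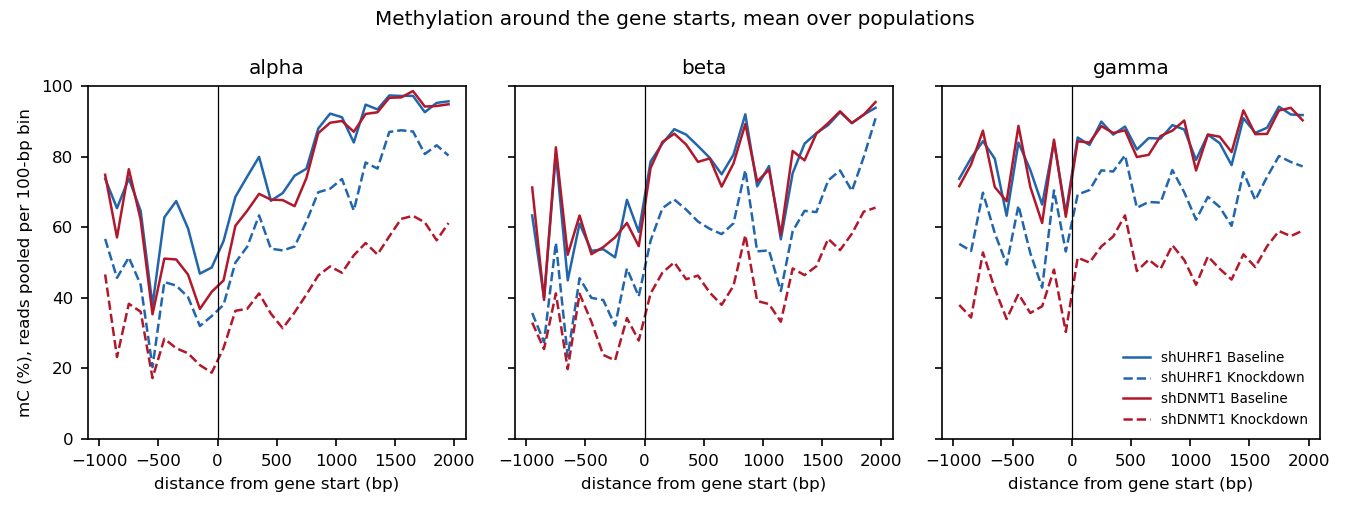
mC (percent of reads, pooled per 100-bp bin) against distance from the gene start in bp, for the alpha, beta and gamma clusters, as the mean over the 3 shUHRF1 clones (blue) or the 2 shDNMT1 bulk populations (red), at Baseline (solid) and Knockdown (dashed). The alpha lines, which include the C-type genes, dip upstream of the start, and the red dashed lines lie below the blue dashed ones in every bin.

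The CpG of CGCT in the shared word was less methylated than the windows around it. The alpha and beta words hold no other CpG, while the gamma word holds 1 more, at its letters 2 and 3, which is given apart. With reads pooled over the 9 alpha sites it read 52.6% in Cl.3, 55.3% in Cl.6, 64.9% in Cl.9, 57.4% in R1 and 53.7% in R2 at Baseline, where the whole windows of the same genes read 84.8%, 86.5%, 78.3%, 83.3% and 85.1%. At the 13 beta sites it read 48.2%, 65.3%, 40.6%, 49.1% and 52.0%, and at the 9 gamma sites 52.2%, 67.8%, 59.1%, 54.5% and 58.3%. It lay below the windows in 15 of 15 pairings of cluster and population at Baseline, and in 15 of 15 at Knockdown and at Recovery too, and the counts were 15 of 15 also with every site and gene weighted equally, an alternative added after seeing the data. The other CpG of the gamma word read 44.1%, 66.3%, 53.6%, 46.1% and 53.4% at Baseline, and was also below the windows in 5 of 5 populations at each stage. These counts are a description, as the words were picked from the same promoters.

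Against the CpGs within 100 bp of it, those inside the word left out, the CpG of CGCT had no single order. Over all Baseline libraries that of the alpha word read 57.5% (95% Wilson interval 53.8% to 61.1%), against 73.8% over the CpGs up to 100 bp before it and 89.7% over those up to 100 bp after it. That of the beta word read 49.6% (46.7% to 52.5%), against 53.8% before and 66.1% after. That of the gamma word read 58.8% (54.5% to 62.9%), against 79.5% and 70.6%, and the other CpG of that word 53.4% (49.1% to 57.6%). These intervals cover counting error only. By population the CpG of CGCT was below the CpGs after it in 15 of 15 pairings, and below those before it in 12 of 15, the exceptions being alpha in Cl.9 and beta in Cl.6 and R1. The pooled values weight sites by their reads. With sites weighted equally, that of alpha averaged 62.6%, against 72.6% before and 91.7% after, and that of beta 54.6%, against 55.1% and 63.8%. For gamma it averaged 71.1%, below the 79.1% before but above the 69.1% after. Not every site had such CpGs, and the gamma value before the word came from 6 of the 9 sites.

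Single sites ranged from nearly unmethylated to fully methylated at the CpG of CGCT. Pooled over the 5 Baseline libraries, 69 of 69 reads were methylated at the word of PCDHB4 and 49 of 50 at that of PCDHA6, while 2 of 144 were at that of PCDHB10 and 5 of 120 at that of PCDHB7. In the gamma cluster the word of PCDHGB5 had 23 of 23, that of PCDHGA12 had 83 of 84 and that of PCDHGA10 had 3 of 102. The sites of PCDHB4, PCDHB7 and PCDHB10 printed above carry the same 10 letters at these differing levels. Of the 31 sites, 3 were under 10% and 10 were over 90%.

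At PCDHA1 the clones departed from the bulk populations, and at PCDHA8 the clones differed among themselves. The word of PCDHA1 had 0 of 14, 0 of 13 and 0 of 24 methylated reads in Cl.3, Cl.6 and Cl.9 at Baseline, against 14 of 28 in R1 and 12 of 25 in R2. That of PCDHA8 had 9 of 17, 2 of 14 and 21 of 28 in the clones, against 2 of 11 and 0 of 23. Each count comes from 1 CpG.

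**Figure D3:**
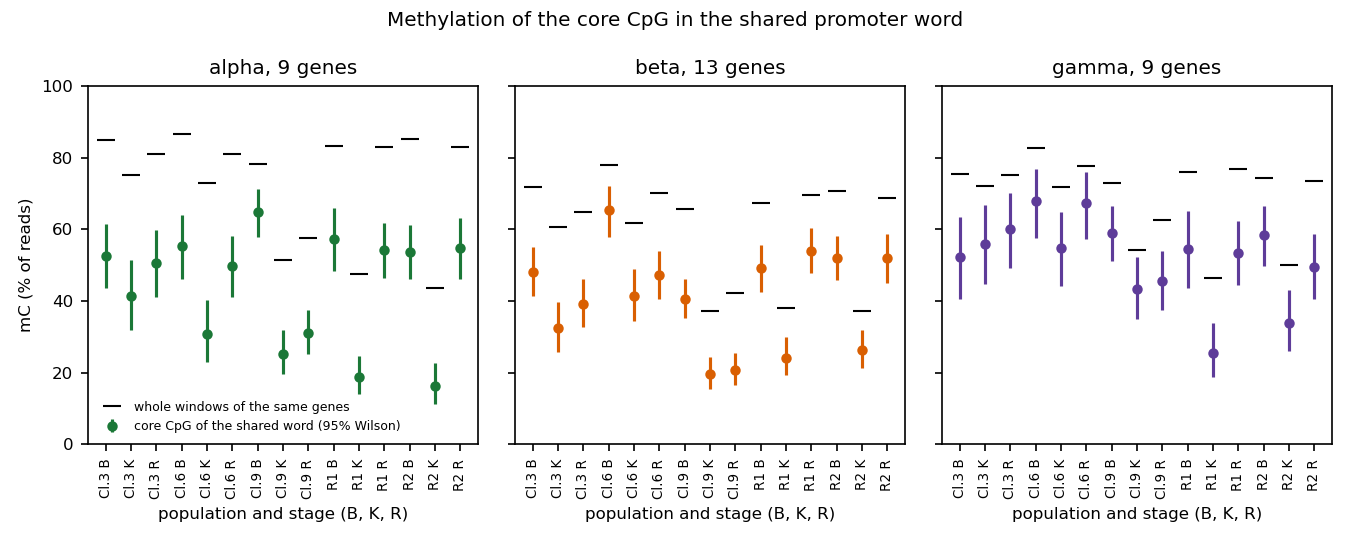
mC (percent of reads) of the core CpG, that of CGCT, in the shared word of each cluster, 1 per gene, with the other CpG of the gamma word not drawn, pooled over the genes that hold the word, in the 15 libraries (B Baseline, K Knockdown, R Recovery), with 95% Wilson intervals that cover counting error only, and the whole windows of the same genes as black dashes. Every point lies below its dash, and the points fall at Knockdown except for gamma in Cl.3, which reads 52.2% at Baseline and 56.0% at Knockdown.

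At Knockdown the family lost methylation in every population, and more in the shDNMT1 populations than in the clones. The members' mean fell to 67.5% in Cl.3, 66.7% in Cl.6 and 46.2% in Cl.9, and to 42.6% in R1 and 42.4% in R2. The changes were −8.94, −13.5 and −25.7 percentage points for the clones (mean −16.1 ± 8.68, SD, n = 3), and −31.4 and −32.6 for the bulk populations (mean −32.0 ± 0.85, SD, n = 2). The groups did not overlap, and the difference of 15.9 points had an exact two-sided permutation p = 0.2, the smallest that 3 against 2 allow. Between members of 1 population, the SD at Baseline and Knockdown was 21.6 and 13.7 points in R1, 21.2 and 13.7 in R2, 20.2 and 17.4 in Cl.9, 19.4 and 18.7 in Cl.6, and 21.2 and 21.3 in Cl.3.

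By gene, 49 of 52 members were lower at Knockdown in all 5 populations, as were 70.2% of all gene starts tested. In edgeR's quasi-likelihood test with Benjamini-Hochberg adjustment over all 18408 starts, 50 of 52 members were lower in the clones, where 73.2% of all starts were called. In the shDNMT1 populations 48 of 52 were lower, where 65.3% of all starts were called. Among starts at 50% or more at Baseline the shares called were 98.4% and 99.8%, and the members' 45 of 46 and 46 of 46, so that the members' count lay close to that of other methylated starts. Without the population block the counts were 29 with shUHRF1 (52.1% of all starts) and 45 with shDNMT1 (53.6%), and without Cl.9 that with shUHRF1 was 35 (62.2%).

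The size of the loss was slightly below that of other methylated starts. Among the 46 members at 50% or more, the median change was −16.9 points with shUHRF1 and −35.7 points with shDNMT1, against −21.4 and −40.3 points for all 6713 starts in that class. Their Baseline level was also lower, as given above, and its part in this was not tested.

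How the loss related to the Baseline level differed between the groups in these values, a difference that was not tested. In the shDNMT1 populations the Knockdown change followed the Baseline level across the 52 members, with a Spearman's rho of −0.700 in R1 and −0.663 in R2. In the clones rho was −0.0595, 0.0356 and −0.290. These values are across genes of 1 locus, which are not independent, and are given as a description.

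**Figure D4:**
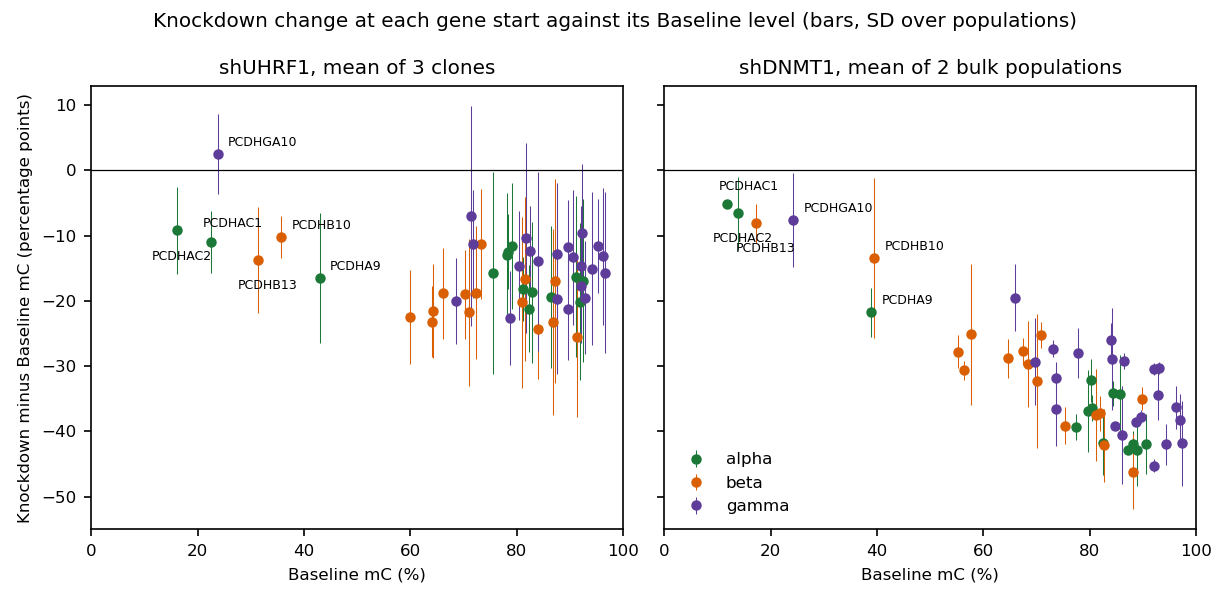
Knockdown minus Baseline mC (percentage points) of each of the 52 members against its Baseline mC (percent), as the mean of the 3 shUHRF1 clones (left) and of the 2 shDNMT1 bulk populations (right), with the SD over populations as bars and the cluster as colour. On the right the loss grows with the Baseline level, on the left most members lie between −10 and −25 points at any level, and PCDHGA10 is the 1 member with a positive mean.

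Members low at Baseline had smaller changes in percentage points, by their median, in both groups. Their median Baseline level was 24.9%, against 82.7% for members at 50% or more, so they had fewer points to lose. The share of Baseline lost was not compared between these classes. At PCDHAC1, mC went from 25.0% to 13.3% in Cl.3, from 26.3% to 10.9% in Cl.6 and from 16.4% to 10.5% in Cl.9, and from 11.3% to 6.3% in R1 and from 12.5% to 6.9% in R2. The mean change was −11.0 ± 4.79 points in the clones (SD, n = 3; edgeR adjusted p = 0.00601) and −5.24 ± 0.406 points in the bulk populations (SD, n = 2; edgeR adjusted p = 0.0582). The difference between the shRNAs was not called (edgeR adjusted p = 0.853 on the scale of log2 odds), and all 3 clones began higher than R1 and R2. PCDHB13, a beta gene, changed by −13.8 ± 8.11 points in the clones and by −8.12 ± 2.97 in the bulk populations. Over the 6 members under 50% the median change was −10.6 points with shUHRF1 and −7.88 points with shDNMT1, whereas the 3042 gene starts between 10% and 50% had medians of −8.25 and −10.8 points. The 6 are too few to read more than the values from.

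PCDHGA10 was the 1 member whose mean rose in the clones. It went from 17.2% to 18.5% in Cl.3, from 30.5% to 39.5% in Cl.6 and from 23.6% to 20.7% in Cl.9, and the mean change of 2.46 ± 6.09 points (SD, n = 3) was not called (edgeR adjusted p = 0.659). In Cl.6 the 95% Wilson intervals were 26.6% to 34.6% at Baseline and 35.2% to 44% at Knockdown, and the Recovery level was 40.0%. Each comes from 1 library, covers counting error only and takes counts at neighbouring CpGs as independent. They are therefore no test of the rise. The rise depended on the region, since a window from 1000 bp upstream to 100 bp downstream had a log2 odds change of −2.26 (edgeR adjusted p = 0.000756). In R1 and R2 the level went from 26.2% to 13.5% and from 22.3% to 19.8%. PCDHGB2 was the other member not called in the clones, where its level went from 62.0% to 74.4% in Cl.3, from 80.8% to 65.7% in Cl.6 and from 71.6% to 53.3% in Cl.9. The log2 odds change was −0.52 (edgeR adjusted p = 0.148), and −1.14 without Cl.3 (edgeR adjusted p = 0.00247), which was called.

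The largest losses in the beta cluster were at PCDHB5, in both groups. Its levels fell from 93.1% to 75.5% in Cl.3, from 91.6% to 72.2% in Cl.6, from 89.5% to 49.9% in Cl.9, from 92.6% to 42.4% in R1 and from 83.8% to 41.6% in R2. The mean change was −25.5 ± 12.2 points in the clones (edgeR adjusted p = 1.22e-06) and −46.2 ± 5.71 points in the bulk populations (edgeR adjusted p = 6.05e-08). In the alpha cluster the largest mean losses were −21.2 points at PCDHA4 in the clones and −42.9 points at both PCDHA5 and PCDHA13 in the bulk populations. In the gamma cluster they were −22.7 points at PCDHGA2 in the clones and −45.3 points at PCDHGA8 in the bulk populations. The start codon of PCDHGA8 lies 2657 bp downstream of its annotated start, outside the window.

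At the C-type gene PCDHGC3 the loss was smaller in every clone than in both bulk populations. It fell from 97.9% to 93.3% in Cl.3, from 97.6% to 87.5% in Cl.6 and from 93.3% to 68.5% in Cl.9, while it fell from 96.8% to 61.4% in R1 and from 97.0% to 56.0% in R2. The log2 odds change was 2.04 higher in the clones (edgeR adjusted p = 0.0392). The other member called for this difference was PCDHGA11, which changed by −9.59 ± 10.5 points with shUHRF1 and by −36.4 ± 3.33 points with shDNMT1 (difference of 2.82 on the log2 odds scale, edgeR adjusted p = 0.0197). The 2 members called of 52 compare with 2.87% of all starts and with 7.21% of those at 50% or more. Both calls were lost with limma, with quasi-binomial regression, without the population block, and when Cl.3, R1 or R2 was left out, and that of PCDHGC3 also without Cl.6. Without Cl.9 the count was 14, where 11.6% of all starts were called. By points, the clones' change was smaller than that of both bulk populations at 31 of 52 members, without overlap, as at 30.5% of all starts and 69.6% of those at 50% or more.

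The other gamma C-type genes fell too. PCDHGC4 ended at 88.0%, 83.0% and 66.5% in the clones and at 49% and 55.8% in R1 and R2. PCDHGC5, the last gene of the locus, ended at 63.1%, 50% and 32.9% in the clones and at 42.7% and 31.4% in the bulk populations, with mean changes of −20.0 ± 6.64 points (edgeR adjusted p = 0.000791) and −36.6 ± 5.77 points (edgeR adjusted p = 6.36e-06). Both genes were called in both groups, so that all 3 gamma C-type genes were, and so was PCDHAC2 (edgeR adjusted p = 0.00279 and 0.0313), with its call kept under 11 and 9 of 13 alternatives. PCDHAC1 was called with shUHRF1, under 12 of 13 alternatives too, and missed the threshold with shDNMT1, where 5 of 13 alternatives called it. In windows of 250 bp the log2 odds change of PCDHAC2 in the bulk populations was 0.49.

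Genes at the ends of the clusters varied. PCDHAC2, the last of the alpha cluster, had the smallest mean loss among tested alpha members with shUHRF1, −9.23 ± 6.70 points. With shDNMT1 it changed by −6.58 ± 5.62 points. PCDHA1, the first of the locus, changed by −12.5 ± 5.75 points with shUHRF1 and by −32.2 ± 3.30 points with shDNMT1. The first and last beta genes, PCDHB1 and PCDHB15, changed by −17.0 ± 15.7 and −19.0 ± 6.82 points in the clones and by −35.0 ± 1.71 and −32.3 ± 10.3 points in the bulk populations. PCDHGA1, the first gamma gene, changed by −11.3 ± 8.24 and −19.5 ± 5.12 points. Over the 52 members the mean change ran from −25.5 points at PCDHB5 to 2.46 points at PCDHGA10 in the clones, and from −46.2 points at PCDHB5 to −5.24 points at PCDHAC1 in the bulk populations.

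The order in which the clusters lost methylation varied between populations. In the clones beta lost the most, −12.8 points in Cl.3, −15.8 in Cl.6 and −29.2 in Cl.9, against −5.81, −12 and −23.9 points for gamma and −9.41, −13.2 and −24.6 points for alpha. In the bulk populations gamma lost 32.8 and 32.6 points and beta 29.7 and 31.0 points, while alpha lost 31.1 points in R1 and, the most of the 3, 34.4 points in R2. Beta minus gamma was thus negative in 3 of 3 clones, by 5.34 ± 1.64 points, and positive in 2 of 2 bulk populations, by 2.31 ± 1.05 points. That contrast between the groups had an exact permutation p = 0.2, which is the smallest possible. On the scale of log odds beta minus gamma was −0.21, 0.32 and 0.02 in the clones and 0.68 in both bulk populations, so that the opposite direction held only in percentage points.

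**Figure D5:**
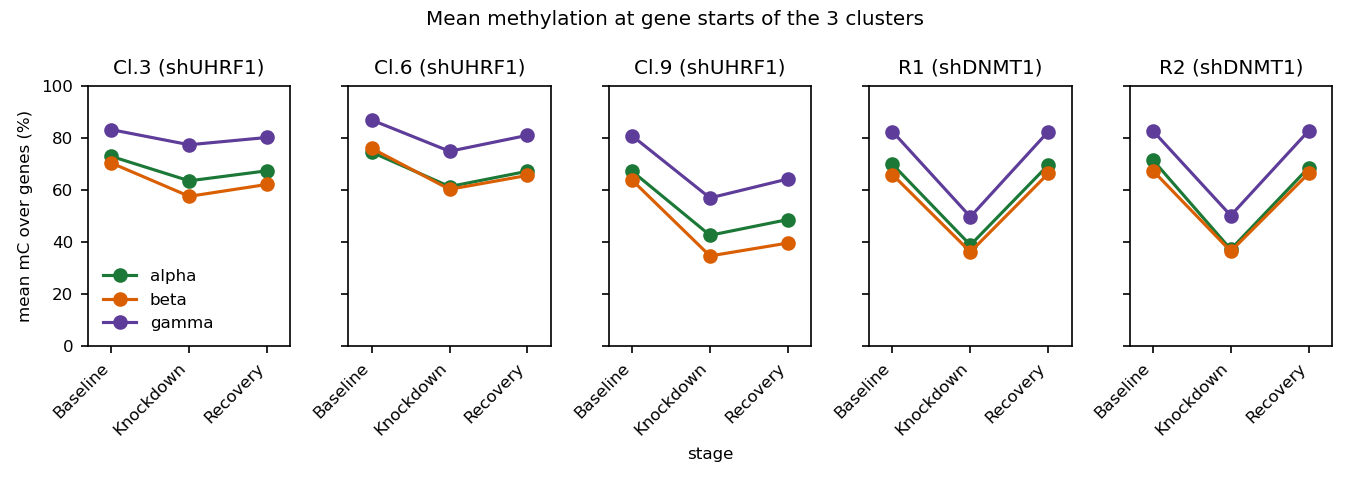
Mean mC over the genes of the alpha, beta and gamma clusters (percent) at Baseline, Knockdown and Recovery, 1 panel per population. Gamma stays on top in all 15 libraries, and the lines return to the Baseline level in R1 and R2 only.

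Relative to where each cluster began, gamma lost the smallest share in every population. The share of the Baseline mean missing at Knockdown was 6.98%, 13.8% and 29.6% for gamma across Cl.3, Cl.6 and Cl.9, with 39.8% and 39.4% for R1 and R2. For beta it was 18.2%, 20.7%, 45.7%, 45.1% and 46.0%, and for alpha 12.9%, 17.7%, 36.7%, 44.5% and 48.1%.

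Within the locus, starts lost a little less than the variable exons, as taken above, by 1.80 ± 1.21 points (SD, n = 5), in 5 of 5 populations (exact sign-flip permutation p = 0.063). Relative to Baseline the order was the opposite, with 11.7%, 16.8%, 35.8%, 42.4% and 43.5% of the mean missing at starts in Cl.3, Cl.6, Cl.9, R1 and R2 and 11.4%, 15.8%, 33.6%, 40.9% and 41.3% at variable exons. Against the 6352 CpGs of the locus over 2000 bp from any member start, the loss at starts was 2.40, 4.54 and 3.00 points smaller in the clones. The difference was −0.0743 and −0.965 points in R1 and R2. On the scale of log odds this difference was negative in all 5 populations, with a mean of −0.26. CpG density was examined as a further property of the windows. The 339 low-density CpGs of the regions, which had no other CpG closer than 20 bp, had lower Baseline levels than the 1372 high-density ones, 56.0% to 67.1% against 73.5% to 83.5%. The Knockdown change of low-density minus that of high-density CpGs was −4.08, −5.22 and −6.93 points in the clones and −2.96 and −2.24 points in R1 and R2 (exact sign-flip permutation p = 0.063 over the 5 populations). Without the C-type genes the mean difference went from −4.29 to −2.69 points, and it was 2.22 and 1.33 points in R1 and R2.

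The segmentation deposited for each library placed these starts in domains of differing class. At Baseline 21 to 37 of the 53 starts lay in highly methylated domains, mostly those of the gamma cluster (16 to 21 of 22), while beta starts had 0 to 6 of 16. Partially methylated domains held 7 to 24 starts. At Knockdown 0 starts lay in highly methylated domains in Cl.9, R1 and R2, against 10 in Cl.3 and 4 in Cl.6, and unmethylated regions, which held 3 starts in each Baseline library, held 4, 2, 19, 24 and 21 in Cl.3, Cl.6, Cl.9, R1 and R2. Classes were called separately in each library and can overlap. The share of all gene starts in each class was not counted. Across the genome, the authors report that highly methylated domains were lost and unmethylated regions expanded with either knockdown. The counts therefore describe the members and show nothing particular to them.

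At Recovery the shDNMT1 populations stood close to their Baseline mean, and the clones lay below theirs. The members' mean was 71.2%, 72.6% and 52.4% in Cl.3, Cl.6 and Cl.9, which is −5.30, −7.65 and −19.5 points from Baseline, and 74.0% and 73.9% in R1 and R2, which is 0.0617 and −1.12 points from it. The mean change was −10.8 ± 7.60 points in the clones (SD, n = 3) and −0.530 ± 0.837 points in the bulk populations (SD, n = 2). Other methylated starts were close to this. Among starts at 50% or more at Baseline, the median change with shUHRF1 was −11.4 points for members and −12.4 for all. With shDNMT1 these medians were −0.593 and −1.13 points. Of the methylation lost, 40.7%, 43.3% and 24.3% was regained by the clones, as were 100.2% and 96.6% by the bulk populations (exact permutation p = 0.2, the smallest possible). The share regained over all gene starts was not computed. Gamma regained more than beta in all 3 clones, 48.3%, 51.2% and 30.5% against 35.7%, 34.0% and 17.0%, a difference that was not tested.

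Recovery was below Baseline in all 3 clones at 43 of 52 members (68.4% of all starts), among them 38 of the 46 members at 50% or more (91.5% of all starts in that class). The change from Baseline was lower in every clone than in both bulk populations at 32 of 52 members (49.3% of all starts) and at 31 of those 46 (73.7%).

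In the test by gene, 39 of 52 members were still called lower than Baseline in the clones (58.1% of all starts), 11 of 14 in alpha, 15 of 16 in beta and 13 of 22 in gamma. Of the 46 members at 50% or more, 35 were called, against 88.8% of all such starts. Only 13 were called without Cl.9 (37.7% of all starts) and 2 without the population block (21.3%). In the shDNMT1 populations 0 of 52 were lower with edgeR (0% of all starts), with limma and with quasi-binomial regression, and 0 had an unadjusted edgeR p under 0.05. The rise from Knockdown to Recovery was called at 49 of 52 members in these populations (63% of all starts, 99.6% of those at 50% or more). In the clones it was called at 0 of 52 (5.95% of all starts, 15.7% of those at 50% or more) with edgeR, at 0 with limma (0% of all starts) and at 2 with quasi-binomial regression (6.43%). Of the 52, 9 had an unadjusted edgeR p under 0.05. The share of all starts under that unadjusted threshold was not counted in either group.

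PCDHB14 kept the largest beta deficit in the clones. Its levels at Baseline and Recovery were 72.3% and 54.2% in Cl.3, 70.2% and 51.0% in Cl.6 and 49.6% and 25.7% in Cl.9, a mean change of −20.4 ± 3.10 points, while R1 and R2 stood at 53.3% and 57.0% against 57.9% and 54.7%. PCDHGA2 had the largest gamma deficit, −17.7 ± 14.9 points, and PCDHA9 the largest alpha deficit, −16.8 ± 8.06 points. The smallest deficits of the beta and alpha clusters were at PCDHB8, with −3.09 ± 4.73 points, and PCDHAC2, with −3.36 ± 1.44 points, neither of which was called. The difference between the groups at Recovery was called at 2 of 52 members (8.74% of all starts, 18.3% of those at 50% or more), PCDHA13 and PCDHGA3, and at 15 without Cl.3 (21.9% of all starts) and 0 without any other population. PCDHA13 went from 92.4%, 95.1% and 88.0% to 84.6%, 87.8% and 67.4% in the clones and from 85.8% and 88.5% to 88.0% and 88.7% in R1 and R2, and the difference was −1.65 on the log2 odds scale (edgeR adjusted p = 0.0436). PCDHGA3 went from 94.4%, 93.4% and 88.3% to 88.2%, 85.0% and 71.4% in the clones and from 87.6% and 90% to 86.2% and 92.9% in R1 and R2 (−1.56, edgeR adjusted p = 0.0498).

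Related genes gave a frame for these values. Of 10 non-clustered protocadherins that passed the filter, which are adhesion genes of the same superfamily outside the clusters, 9 were called lower at Knockdown in each group (73.2% of all starts with shUHRF1 and 65.3% with shDNMT1), with median changes of −10.9 and −29.7 points. Of 10 classical cadherins, 10 were called with shUHRF1 and 9 with shDNMT1, beside the same shares of all starts, with medians of −15.9 and −24.3 points. At Baseline the non-clustered protocadherins had a median of 83.3% and the classical cadherins of 60.9%, with 7 and 5 genes at 50% or more. High Baseline methylation was thus not particular to the clusters. The classical cadherin CDH1 is also one of the epithelial markers above. The 28 other genes within 500000 bp of the clusters whose regions overlapped none of a member, which include the non-clustered protocadherins PCDH1 and PCDH12 counted above, had a median Baseline level of 3.10%, so that the methylated starts of the family lay among mostly unmethylated ones, and 6 of the 28 were at 50% or more. A further gene, ENSG00000279983, starts next to PCDHB14, and the regions of both overlap. The 13 genes for CTCF, cohesin and silencing factors known to act on the clusters had a median of 1.38%, and 0 were at 50% or more.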

How the data were processed

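Whole-genome bisulfite libraries of 15 HCT116 samples were used. By the labels and methods, reads were aligned to hg38 with Meth10X, and the authors deposited 3 count tables of raw, unnormalised methylated and total reads per CpG, with strands merged. How duplicates and sequence variants were treated is not given in the sources used here. The other deposited files list domain classes per library (no unit), called with MethylSeekR, and by complement with bedtools 2.25.0. Every column was matched to a sample through its labels. No 2 libraries held identical counts.

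Gene starts came from GENCODE release 44, and sequences from hg38. Counts were summed per region within 500 bp of each start (5 CpGs or more, and 50 reads or more per library). A mean over members weights genes equally. edgeR 4.0.16 (R 4.3.3) fitted methylated and unmethylated counts of all 18408 regions with a block for the population, tested by quasi-likelihood with Benjamini-Hochberg adjustment at 0.05. Values over populations were tested by exact sign flips or exact permutation, two-sided, whose smallest p was 0.25 for the 3 clones, 0.5 for the 2 bulk populations, 0.063 for all 5 and 0.2 for 3 against 2. None can pass 0.05. The block rests on the labels, which name the clone of each shUHRF1 library and only a replicate number for each shDNMT1 library. The paper describes R1 and R2 as bulk populations, and libraries with the same number were taken as the same culture. Deviations from the group means correlated at 0.372 to 0.86 between stages of 1 clone, and at −0.0227 to 0.0137 within the bulk populations. Populations are cultures of 1 line, so p-values cover the spread between cultures. Depth was 315732617 to 590592161 reads at CpGs, and 95% Wilson intervals cover counting error only. Scripts were tested on simulated data. Python 3.11.15, numpy 2.4.6, pandas 2.3.3 and matplotlib 3.10.9 did the rest.

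Genes named by rule were, per cluster, those with the extreme Baseline levels, Knockdown changes and clone Recovery changes, those at the cluster ends, the C-type genes and those called for the difference between shRNAs at Knockdown. Others were named after their values were seen. The members and lists were chosen with earlier results of these data known. Alternatives were limma 3.58.1, quasi-binomial regression, no block, other filters, windows, coverage minimums and scales, and each population left out. DESeq2 was not used, as it does not take paired methylated and unmethylated counts.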

Additional observations from a re-analysis of the deposited data

Results flagged for a closer look

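Differences between the shUHRF1 clones and the shDNMT1 bulk populations stood out in 4 comparisons within the locus. Alpha minus beta Knockdown change was 3.50 points with shUHRF1 and −2.35 points with shDNMT1, a difference of 5.85 points. The same contrast at Recovery was 3.80 and −1.30 points, a difference of 5.10 points. Beta minus gamma Knockdown change differed by −7.64 points between the groups. Gene starts minus the rest of the locus at Knockdown was 3.31 points with shUHRF1 and −0.520 points with shDNMT1, a difference of 3.83 points. Every population of 1 group had the sign opposite to that of the other group, and the exact permutation p was 0.2 in each, the smallest possible. These contrasts are in percentage points, and the opposite signs held for none of the 3 at Knockdown on the scale of log odds, where alpha minus beta was 0.06, −0.08 and 0.14 in the clones and −0.22 and −0.53 in R1 and R2. Beta minus gamma was positive there in 4 of 5 populations, and starts minus the rest of the locus negative in all 5. Without the C-type genes alpha minus beta at Knockdown kept opposite signs, at 3.45, 1.92 and 2.31 points against −5.89 and −7.76 points, with a mean over the 5 populations of −1.20 points. These groups also differ in clonal or bulk growth and in count table, which cannot be told apart from the shRNA.

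By gene, the difference between the groups was called by edgeR at Knockdown for PCDHGA11 (2.82 on the log2 odds scale, adjusted p = 0.0197, 0.00233 to 0.625 over 13 alternatives, called in 6) and PCDHGC3 (2.04, adjusted p = 0.0392, 0.0239 to 0.625, called in 5 of 13). At Recovery it was called for PCDHA13 (−1.65, edgeR adjusted p = 0.0436, 0.0153 to 0.467 over 12 alternatives, called in 2) and PCDHGA3 (−1.56, edgeR adjusted p = 0.0498, 0.0277 to 0.469 over 13, called in 1).

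At 6 members, PCDHA12, PCDHA13, PCDHB12, PCDHGA4, PCDHGA5 and PCDHGA6, Recovery was below Baseline in all 3 clones and above it in both bulk populations. Of all gene starts tested 11% did so. Among the 6, only PCDHA13 was called for the difference. No group held the 4 samples that a check for single outlying samples needs.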

How the results depend on the processing

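The loss at Knockdown kept its direction under every alternative run, while order among clusters and counts of calls did not all. Alpha minus beta at Baseline was −3.59 points with at least 10 reads per CpG, −11.7 with reads pooled over genes, −2.23 in 250-bp windows and −0.354 without genes under 7 reads per CpG (chosen after seeing the data). Alpha minus gamma Knockdown change was 0.141 with 10 reads, 0.611 pooled and 0.17 as log odds. On the log odds scale alpha minus beta was −0.13, beta minus gamma 0.30 and starts minus the rest of the locus −0.26, and without C-type genes alpha minus beta was −1.20 points. The bulk populations' Recovery change was 0.00514 points pooled, 0.0617 without R2 and −1.12 without R1. PCDHAC2 in the bulk populations changed by 0.49 log2 odds in 250-bp windows, and PCDHGA10 in the clones by −0.27, −0.49 and −2.26 in windows of 250 bp, 1000 bp and 1000 bp upstream to 100 bp downstream, and from −0.0764 (without Cl.6) to 0.37 (without Cl.9) with 1 population left out.

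Without the population block, which pairs the stages, members lower in the clones numbered 29 at Knockdown (52.1% of all starts) and 2 at Recovery (21.3%), and calls for the difference between groups 0 at either stage (0% of all starts). Alpha minus gamma Recovery change (−1.83) and starts minus variable exons (1.80) then had an exact permutation p of 0.0397, and no other call reported as an answer to a comparison was gained or lost, nor did another count move by over 1.5 times. With shDNMT1 the members lower at Knockdown and those rising to Recovery then numbered 45 each (53.6% and 51% of all starts). Members lower at Recovery in the clones numbered 25 of the 36 tested with at least 10 CpGs and 200 reads, against 39 of 52 (45.9% and 58.1% of all starts), and 13 to 42 when 1 population was left out (37.7% to 63.6%). The clones' rise to Recovery was called at 2 members with quasi-binomial regression (6.43% of all starts), 3 in 1000-bp windows (17.3%) and 1 in upstream windows (11.6%). Calls for the Knockdown difference numbered 0 with limma, quasi-binomial regression or 250-bp windows (0% to 0.511% of all starts), 13 in 1000-bp (14.3%) and 5 in upstream windows (9.05%), and 0 to 14 with 1 population left out (0% to 11.6%). Those for the Recovery difference numbered 0 with limma, quasi-binomial regression, the stricter filter (under which PCDHA13 was not tested) or 250-bp windows (0% to 2.80% of all starts), 1 with no filter (8.07%), 13 and 6 in the wider windows (29.8% and 17.3%), and 0 to 15 with 1 population left out (0% to 21.9%). The cause was not tested in any of these. Of the other values, 326 that answer a comparison and 183 of single genes were counted as unchanged. Unchanged means the same direction and side of the threshold or, for a count of calls, a move of at most 1.5 times. Exact tests over populations could not pass the threshold while the stages were paired. For those tests the side of the threshold was fixed in advance, and only the direction could change. Of single genes 53 lost a call, 14 gained 1 and 5 changed sign. Windows on distant start codons and the permutation of 3 against 2 populations were also added after seeing the data. Regions hold 82 to 1929 reads per library, which limits single genes more than cluster means.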
